A study of Danio rerio with 17 samples.

Results

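The response of overfed HBx,src zebrafish livers to Oligo-Fucoidan (OF) was measured on 6 liver arrays of the 17 in the series, 3 from overfed fish given OF (DIO+OF) and 3 from overfed fish without it (DIO). They were taken by their titles, as every array of these groups in batch 1, and no measured value was used to choose them. OF is made from brown seaweed and consists of short chains of fucoidan, a polysaccharide rich in fucose and sulfate. Fish of the HBx,src line express the X antigen of hepatitis B virus, fused to the fluorescent protein mCherry, and the src oncogene, each driven in the liver by the fabp10a promoter, with a green fluorescent marker in the heart. The labels give an age of 6 months for all groups and the series design calls the fish female. From 3 months of age both groups received about 83 mg of Artemia cysts per fish daily for 2 months, which makes zebrafish obese. Another group of the same line and batch received 6.9 mg (NOR, 3 arrays) and was used only to estimate the spread between arrays and as a reference level. The DIO+OF fish received 300 mg/kg by gavage 3 times a week for 1 month from 4 months of age. The DIO fish are labelled as mock, and whether this included a gavage or the anesthesia used for it is not stated, so OF and its administration cannot be told apart. The other 8 arrays come from a line that is in addition heterozygous for p53 and were run as batch 2. Whether an array held 1 liver or a pool is not given, so the p-values measure only the spread between these arrays.

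The liver builds cholesterol from acetyl units, first through mevalonate to squalene and then through ring closure to the sterol. The enzymes of both stages are switched on together by the membrane-bound factor SREBP2 when sterols in the endoplasmic reticulum (ER) are low. Hepatocytes also secrete most plasma proteins and the lipoproteins. They enter the ER through the signal recognition particle, are folded by chaperones, receive sugar chains built from nucleotide sugars and leave in coated vesicles for the Golgi. When unfolded proteins accumulate, the sensors Perk, Ire1 and Atf6 start the unfolded protein response, which raises the chaperones and the degradation machinery.

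A log2 signal was given for 75212 probe sets, of which 30358 name 1 gene and stand for 20908 genes. A gene is called higher or lower in DIO+OF below if it differed 2-fold or more and had an unadjusted p under 0.05, which is the threshold the study used, in a limma fit of the 9 arrays of the line. At this threshold 3706 probe sets were called (4.93%), and 1061 genes were higher (5.07% of all genes) and 444 were lower (2.12%), while the median log2 fold change over all genes was -0.01. The DIO and DIO+OF arrays did not overlap in 2025 genes that lay higher in DIO+OF (9.69%) and in 1801 that lay lower (8.61%). After Benjamini-Hochberg adjustment over all probe sets only 2 passed 0.05 (0.00266%), both lower and neither with a gene name, while 8330 had an unadjusted p under 0.05. A fit of all 17 arrays called 315 probe sets (0.419%), 175 higher and 140 lower, among them 153 genes (0.732%), 101 higher and 52 lower. Adjusted over the probe sets with 1 gene alone, the 9 arrays called 57, 34 higher and 23 lower. Values below are log2 signals of single arrays in the order of the replicate numbers, log2 fold changes with their SE (3 arrays against 3), and adjusted p over all probe sets in the fit of 9 arrays.

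The 3 DIO+OF arrays were not alike. In the list medians for ER and sterol genes replicate 1 lay closer to the DIO arrays than replicates 2 and 3 did. Without it 636 probe sets passed the adjusted threshold, 252 genes higher and 70 lower among them. Hepatocyte markers had a high signal in all 6 arrays, lowest in DIO+OF replicate 3. The median log2 signal of the 17 markers lay between 11.84 and 11.92 in DIO and was 11.82, 11.77 and 11.26 in DIO+OF. In NOR it lay between 11.74 and 11.93. None of the 17 was called, but 12 lay below 0 (median -0.2). The groups did not overlap in 4 that lay lower and 1 that lay higher, against 8.61% and 9.69% of all genes. The 28 exocrine pancreas markers, which zebrafish livers can carry from attached pancreatic tissue, had medians of 2.98, 3.98 and 4.33 in DIO and 2.97, 2.65 and 2.66 in DIO+OF. Of these, 26 were lower on average and 6 were called lower (21.4%, against 2.12% of all genes). The count called lower lay between 0 and 14 when 1 array was left out. The trypsin gene prss59.2 had a log2 fold change of -2.17 ± 0.75 with overlapping arrays, and its call was lost without DIO replicate 2 (-1.99), DIO replicate 3 (-1.61) or DIO+OF replicate 2 (-1.78). The part of pancreatic tissue in the results below was not tested. Of 10 other marker lists (ovary, red blood cells, endothelium, myeloid cells, lymphocytes, bile ducts, stellate cells, fat, intestine and muscle) none had more than 1 gene called. For ovary, lymphocytes, fat, intestine and muscle the list medians in DIO and DIO+OF were 1.77 to 2.26. The medians of these whole arrays were 2.106 to 2.212, so the lack of calls in these lists does not show equal cell content. Of the 20 myeloid markers, however, 17 lay above 0 (median 0.35), and 0 to 4 were called higher with 1 array left out. Their medians were 2.73, 3.36 and 3.55 in DIO, 4.05, 4.84 and 3.21 in DIO+OF, and 3.13, 4.9 and 3.67 in NOR. The part of myeloid cells in the results below was not tested. In bulk liver, fewer cells of a type and less RNA per cell cannot be told apart.

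**Figure D1:**
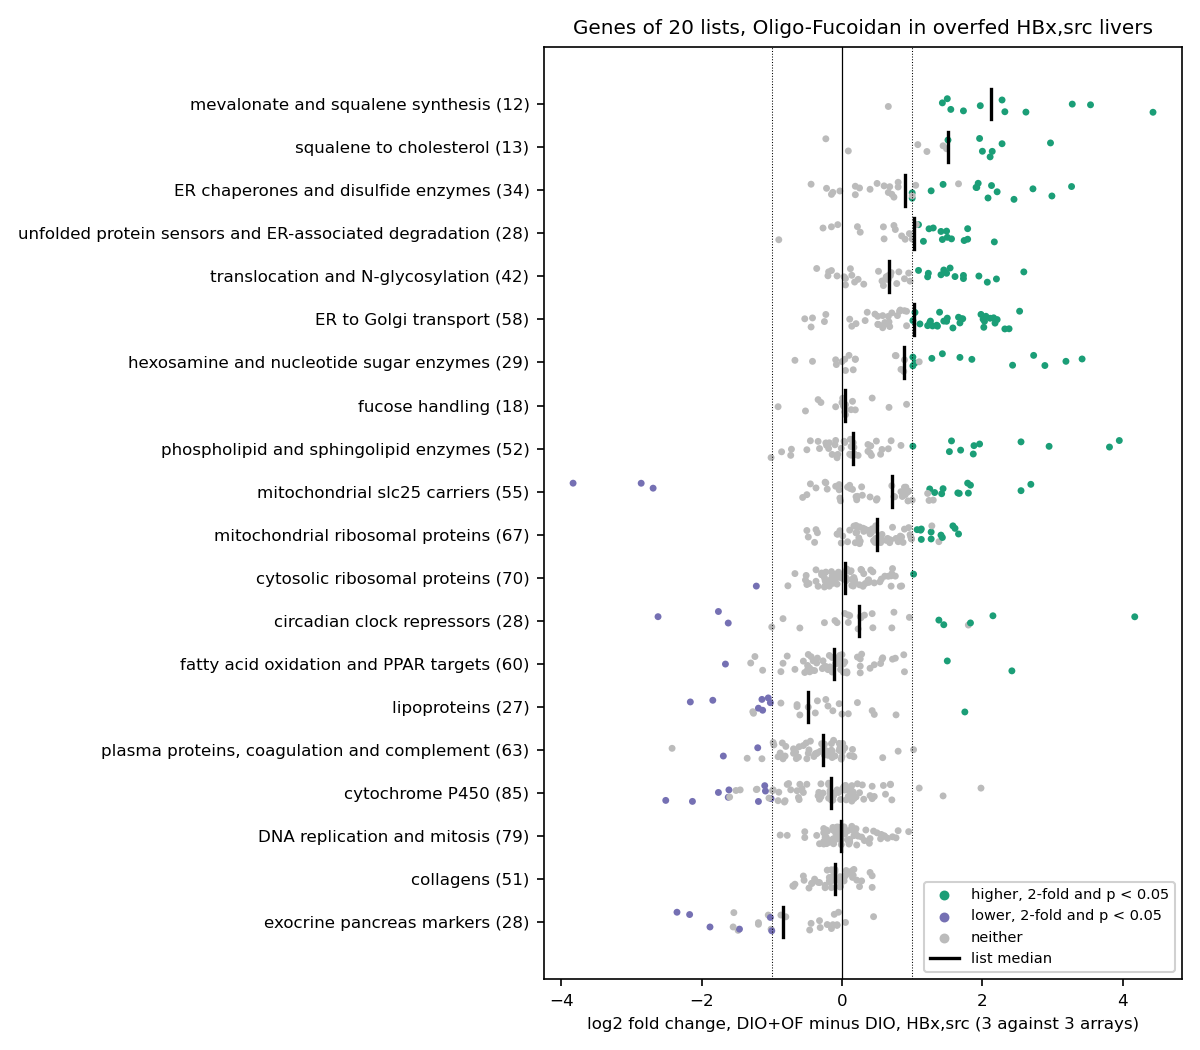
Log2 fold change (x axis, DIO+OF minus DIO, 3 against 3 arrays) of every measured gene of 20 lists, with the number of genes in brackets and a black bar at the list median. Green and purple points are genes called higher or lower, dotted lines mark a 2-fold change, and the sterol, ER and vesicle lists lie mostly to the right while lipoproteins and pancreas markers lie mostly to the left.

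Cholesterol synthesis genes were higher in the DIO+OF livers. Of 12 genes from mevalonate to squalene 11 were called higher (91.7%, against 5.07% of all genes), with a median log2 fold change of 2.12. Of 13 genes from squalene to cholesterol 7 were called higher (53.8%, median 1.51). Neither list had a gene called lower, against 2.12% of all genes. The gene hmgcs1, the synthase that makes HMG-CoA, had 9.05, 6.04 and 7.03 in DIO and 10.18, 12.36 and 12.87 in DIO+OF. All 3 DIO+OF arrays lay above all 3 DIO arrays, and replicate 1 was the lowest of them. The log2 fold change was 4.43 ± 0.99 (adjusted p = 0.186). The rate-limiting reductase hmgcra had 10.4, 10.15 and 9.84 against 11.56, 11.39 and 12.1, a log2 fold change of 1.55 ± 0.48 (adjusted p = 0.295), and was not called in the fit of 17 arrays. The gene mvda, the decarboxylase that ends the mevalonate steps, had 6.79, 5.08 and 4.77 against 7.73, 9.05 and 10.5, and fdft1, the squalene synthase, had 6.59, 5.86 and 5.96 against 7.77, 10.04 and 10.44. In both genes the groups did not overlap, and the log2 fold changes were 3.54 ± 0.88 and 3.28 ± 0.86.

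The ring-forming and later enzymes followed the same order of arrays, but less far apart. The gene sqlea, the squalene epoxidase, had 7.79, 6.33 and 7.34 in DIO and 9.12, 10.28 and 10.99 in DIO+OF, a log2 fold change of 2.97 ± 1.05. For nsdhl, a sterol dehydrogenase, the value was 2.28 ± 0.67 with overlapping arrays (DIO+OF replicate 1 at 5.94, DIO replicate 1 at 6.12). For dhcr7, the last reductase of the path, it was 2 ± 0.77. The sqlea call was lost without DIO replicate 2 (2.56), DIO+OF replicate 2 (2.9) or DIO+OF replicate 3 (2.54), and the dhcr7 call without DIO replicate 1 (1.8), DIO replicate 3 (1.95), DIO+OF replicate 2 (1.75) or DIO+OF replicate 3 (1.52). The cyclase lss was not called: its DIO+OF replicate 1 had 5.38, within the DIO range of 5.33 to 6.14, while replicates 2 and 3 had 8.16 and 8.13 (1.49 ± 0.98). The list median in single arrays shows the same, at 6.17, 6.33 and 6.27 in DIO and 6.39, 8.77 and 9.03 in DIO+OF. In the NOR arrays, which had no OF, it was 8.31, 4.89 and 6.83, a range that held DIO+OF replicate 1 and all DIO arrays. The mevalonate list had medians of 6.41, 4.53 and 5.78 in NOR, below the 7.45, 8.35 and 8.68 in DIO+OF. When 1 array was left out, 6 to 11 mevalonate genes and 1 to 10 later genes were called higher, the fewest without DIO+OF replicate 2. No gene of either list passed the adjusted threshold with 9 or with 17 arrays.

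Among 17 genes that regulate, take up or store sterols 4 were called higher (23.5%, against 5.07% of all genes) and none lower. The gene insig1, an ER anchor of SREBP that is itself induced by it, had 7.96, 6.36 and 6.46 against 8.69, 8.07 and 9.28 (1.75 ± 0.46). The SREBP escort scap was higher by 1.4 ± 0.32, and soat1, which esterifies cholesterol for storage, by 1.74 ± 0.54. The receptor gene ldlrb, which takes up lipoproteins, was the other one called, with overlapping arrays (1.06 ± 0.43). Its call was lost without NOR replicate 1 or 3 (1.06 each), DIO replicate 1 (0.96), DIO replicate 3 (1.04), DIO+OF replicate 2 (1.16) or DIO+OF replicate 3 (0.52), and that of soat1 when its probe sets were averaged (1.23). The transcript of SREBP2 itself, srebf2, did not meet the threshold, with 8.14, 7.73 and 7.88 against 8.45, 8.66 and 8.18 (0.52 ± 0.23). Of 15 bile acid genes 1 was higher (6.67%, against 5.07% of all genes) and 2 were lower (13.3%, against 2.12%). The higher one was nr0b2b, a repressor of bile acid synthesis, with overlapping arrays (2.38 ± 0.97) and a call lost on leaving out any 1 array except DIO+OF replicate 1 (1.45 to 2.56). The lower ones were cyp27a1 genes, sterol 27-hydroxylases of the alternative bile acid path: cyp27a1.1 had 6.72, 7.74 and 7.45 against 6.72, 5.16 and 5.17, and cyp27a1.2 had 6.01, 6.85 and 6.56 against 5.83, 4.0 and 4.31. Their log2 fold changes were -1.62 ± 0.43 and -1.76 ± 0.46. In both genes DIO+OF replicate 1 lay near the DIO arrays and replicates 2 and 3 well below them. The gene cyp7a1, which limits classical bile acid synthesis, was not called and scattered within both groups (1.1 ± 0.91).

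Genes of ER folding and the unfolded protein response were higher as well. Of 34 chaperones and disulfide enzymes 14 were called higher (41.2%, against 5.07% of all genes), with a median of 0.90. Of 28 sensors and genes of ER-associated degradation 13 were called higher (46.4%), with a median of 1.03. None of either list was called lower. The chaperone list had medians of 6.55, 6.55 and 6.52 in DIO and 6.58, 8.09 and 8.4 in DIO+OF. Its NOR medians were 7.1, 7.21 and 7.68, above DIO and above DIO+OF replicate 1. The gene dnajc25, a J-domain cochaperone, separated the groups most cleanly, with 5.41, 4.28 and 5.41 in DIO and 7.65, 8.12 and 8.28 in DIO+OF. Its log2 fold change was 2.99 ± 0.41 (adjusted p = 0.0808), and it passed the adjusted threshold with 17 arrays. The main ER chaperone hspa5 (BiP) had 9.37, 6.38 and 7.99 against 9.05, 11.28 and 11.57. DIO+OF replicate 1 lay inside the DIO range, the other DIO+OF arrays above it, and the log2 fold change was 2.72 ± 0.92. The call of hspa5 was lost on leaving out DIO replicate 2 (1.95), DIO+OF replicate 2 (2.4) or DIO+OF replicate 3 (2.25).

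Further cochaperones and secreted ER stress proteins were called higher, with DIO+OF replicate 1 nearer to DIO than in dnajc25. The gene dnajb9b had 5.32, 3.4 and 4.61 against 6.43, 7.81 and 8.9 (3.27 ± 0.79), and its paralog dnajb9a was higher by 2.45 ± 0.49. For manf, a factor released from stressed ER, the arrays were 8.26, 6.96 and 8.2 against 8.61, 10.53 and 10.51, and creld2 had 6.62, 5.15 and 6.17 against 6.73, 8.61 and 8.4. In both genes replicate 1 was the DIO+OF array nearest to DIO, and the log2 fold changes were 2.08 ± 0.59 and 1.94 ± 0.56. The other large ER chaperone, hsp90b1, was not called, with 10.15, 10.11 and 10.46 against 8.76, 10.98 and 10.91 (-0.03 ± 0.53).

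All 3 sensors were called. The gene atf6 had 8.06, 7.54 and 7.67 in DIO and 9.09, 10.21 and 9.34 in DIO+OF (1.79 ± 0.39), eif2ak3 (Perk) was higher by 1.79 ± 0.44, and ern1 (Ire1) by 1.24 ± 0.38. The ern1 call rested on 1 of its 2 probe sets and was lost when these were averaged (0.48) or without DIO replicate 1 (0.84). The factor xbp1, whose messenger Ire1 splices, had 7.92, 7.64 and 7.35 against 8.95, 10 and 8.25 (1.43 ± 0.48), and its call was lost without DIO replicate 3 (1.29) or DIO+OF replicate 2 (0.97). Of the degradation genes, sel1l, a scaffold of the retrotranslocation complex, was higher by 1.49 ± 0.40 and derl1, a channel subunit of that complex, by 1.3 ± 0.35, the latter not without DIO+OF replicate 2 (0.98). With 1 array left out the count of chaperones called higher lay between 8 (without DIO replicate 2) and 19, and that of sensors and degradation genes between 5 (without DIO+OF replicate 2) and 18. Both highest counts came without DIO+OF replicate 1.

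Genes of entry into the ER and export from it were called higher as well. Of 42 genes of translocation and N-glycosylation 14 were called higher (33.3%, against 5.07% of all genes) and 37 lay above 0 (median 0.67). Of 58 genes of ER to Golgi transport 30 were called higher (51.7%) and 53 lay above 0 (median 1.03). Neither list had a gene called lower, and with 1 array left out 9 to 19 translocation and N-glycosylation genes were called higher, the fewest without DIO+OF replicate 2. The translocation and N-glycosylation medians were 7.75, 7.43 and 7.87 in DIO and 8.2, 8.56 and 8.44 in DIO+OF. The DIO+OF values lay within the NOR range of 8.03 to 8.66. The gene srp68, a subunit of the signal recognition particle, had 6.65, 6.08 and 5.5 in DIO and 7.51, 8.28 and 8.28 in DIO+OF (1.95 ± 0.36, adjusted p = 0.136). Its receptor subunit srpra had 7.55, 6.64 and 7.02 against 8.69, 9.53 and 9.19 (2.07 ± 0.29, adjusted p = 0.0808). The translocon-associated serp1 was higher by 2.59 ± 0.51. All 3 genes were free of overlap.

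The vesicle coats were among the genes called. The cargo adaptor sec24c of COPII, the coat of vesicles leaving the ER, had 5.34, 5.01 and 4.59 in DIO and 6.82, 7.03 and 7.14 in DIO+OF, and here replicate 1 was close to the other DIO+OF arrays. Its log2 fold change was 2.02 ± 0.28 (adjusted p = 0.0808), and 3 of its 5 probe sets were called. The outer COPII subunit sec31a was higher by 2.01 ± 0.40, sec23b by 1.68 ± 0.46 and sec23a by 1.50 ± 0.48, the last not without DIO replicate 3 (1.24). For COPI, the coat of the return path, cope had 6.39, 5.36 and 5.56 against 7.3, 8.71 and 8.45 (2.38 ± 0.52) and arcn1a had 5.0, 4.43 and 4.33 against 5.96, 7.62 and 7.77 (2.53 ± 0.56). The SNARE use1, which acts in retrograde fusion at the ER, was higher by 2.21 ± 0.37. In the fit of 17 arrays 6 of the 58 genes passed the adjusted threshold, all higher, against 0.483% of all genes. The genes sec24c, sec31a, cope, arcn1a and use1 were among them. With 1 array left out 22 to 38 of the 58 genes were called higher.

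**Figure D2:**
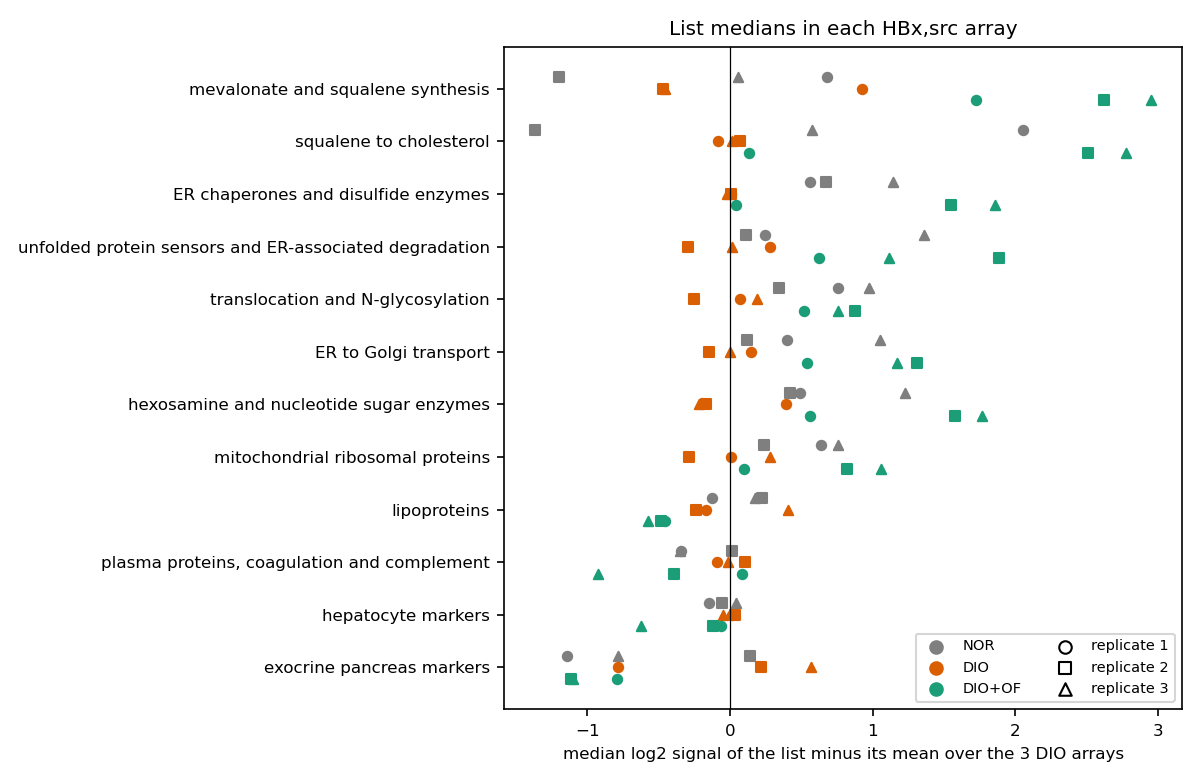
Median log2 signal of 12 lists in each of the 9 HBx,src arrays, drawn as the difference from the mean of the 3 DIO arrays (x axis, log2), with colour for the group and shape for the replicate number. DIO+OF replicates 2 and 3 lie to the right in the sterol, ER and vesicle lists, replicate 1 lies nearer to the DIO arrays, and all 3 DIO+OF arrays lie to the left for lipoproteins.

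Several genes listed with the enzymes that make nucleotide sugars for glycan chains were called higher. Of 29 hexosamine and nucleotide sugar genes 12 were called higher (41.4%, against 5.07% of all genes) and none lower (median 0.88). Not all of the 12 make nucleotide sugars. Among them were the ER transporter slc35b1 and, described below, papss2b and slc35b2, which handle activated sulfate. The gene gfpt1, which commits glucose to the hexosamine path, had 4.81, 4.37 and 5.28 in DIO and 6.19, 8.73 and 8.22 in DIO+OF (2.89 ± 0.59), with replicate 1 lowest among the DIO+OF arrays but above DIO. The gene gmppab, a subunit of the GDP-mannose pyrophosphorylase, had 2.89, 2.96 and 3.09 against 4.38, 7.33 and 6.78 (3.19 ± 0.77). The ER transporter slc35b1 was higher by 2.43 ± 0.63. For uap1, the next pyrophosphorylase of the path, the groups overlapped (1.68 ± 0.57), and its call was lost without DIO replicate 3 (1.47), DIO+OF replicate 2 (1.36) or DIO+OF replicate 3 (1.26). Between 6 and 17 genes were called when 1 array was left out, the fewest without DIO+OF replicate 3.

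A gene of sulfate activation was among those with the lowest p. The gene papss2b, which makes PAPS, the sulfate donor of all sulfotransferases, had 3.55, 3.28 and 3.4 in DIO, at the NOR level of 3.31 to 3.7, and 5.93, 6.67 and 7.88 in DIO+OF. This gave a log2 fold change of 3.42 ± 0.42 (adjusted p = 0.0725). Of 23 sulfotransferase, sulfatase and sulfate handling genes 3 were called higher (13%, against 5.07% of all genes) and none lower. They were tpst1, which sulfates tyrosines of secreted proteins (7.5, 6.41 and 6.57 against 9.46, 9.33 and 9.55; 2.62 ± 0.44), the sulfate transporter slc26a2 (2.72 ± 0.62) and bpnt2, a Golgi phosphatase that clears the product of PAPS use (1.63 ± 0.42). The PAPS transporter slc35b2, counted like papss2b with the nucleotide sugar genes, was higher by 1.28 ± 0.35. Of 18 genes that handle fucose, the sugar of fucoidan, none was called in either direction, and the median was 0.04. With 1 array left out 0 to 1 were called higher and 0 to 1 lower. For a list of this size that is near the share of all genes (5.07% higher and 2.12% lower). The extremes of the list were the fucosyltransferase genes pofut1 (0.92 ± 0.45) and fut11 (-0.91 ± 0.26), and gmds, which starts GDP-fucose synthesis, had 0.43 ± 0.29. Of 3 lectins related to the asialoglycoprotein receptor, asgr1c.1 was called higher (1.05 ± 0.45), with overlapping arrays and the call lost on leaving out any 1 array except DIO+OF replicate 3 (0.62 to 1.19), and asgrl1 was not called (-0.42 ± 0.17).

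Several genes of fatty acid activation and glycerolipid synthesis were called higher. The acyltransferase gpam, the first enzyme of glycerolipid synthesis, had 5.22, 3.67 and 3.94 in DIO and 7.27, 7.57 and 7.78 in DIO+OF, above the NOR range of 5.49 to 6.44 as well. Its log2 fold change was 3.27 ± 0.42 (adjusted p = 0.078). The next acyltransferase agpat2 was higher by 2.22 ± 0.45. The acyl-CoA synthetases acsl1b (6.08, 4.26 and 4.45 against 8.49, 8.22 and 8.17; 3.36 ± 0.58), acsl4a (2.05 ± 0.32) and acsl5 (1.81 ± 0.27), which activate fatty acids, were called as well, and none of these genes overlapped. In the fit of 17 arrays acsl5 was not called (adjusted p = 0.617, and between 0.0423 and 0.617 over the alternatives). In all, 5 of 33 genes of fatty acid synthesis and its regulators were higher (15.2%, against 5.07% of all genes). Of 40 genes of triglyceride assembly and lipolysis 5 were higher (12.5%). With 1 array left out 3 to 5 and 4 to 8 were higher, and 1 to 3 and 1 to 2 lower. With all arrays 1 gene of each list was lower (3.03% and 2.5%), near the 2.12% of all genes. The lower ones were mlxipl (ChREBP), the carbohydrate-sensing lipogenic factor, with 7.66, 7.67 and 7.64 against 6.45, 6.85 and 6.02 (-1.22 ± 0.30), and g0s2, an inhibitor of the triglyceride lipase (-1.66 ± 0.45).

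Fatty acid synthase itself was not called. The gene fasn had 10.15, 6.13 and 7.88 in DIO and 7.3, 8.62 and 11.54 in DIO+OF, a scatter in both groups that left 1.1 ± 1.25. The factor srebf1 had 9.44, 8.91 and 8.86 against 8.72, 8.9 and 9.23 (-0.12 ± 0.24). In both genes the groups overlapped.

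Of 52 phospholipid and sphingolipid genes 11 were called higher (21.2%, against 5.07% of all genes) and none lower, although the list median was 0.16. The ceramide synthase cers2a, which makes very long chain ceramides, had 6.53, 6.02 and 6.51 against 8.94, 9.8 and 9.18 (2.95 ± 0.37, adjusted p = 0.0779), and its paralog cers2b was higher by 2.55 ± 0.63. The gene pisd, the mitochondrial decarboxylase that makes phosphatidylethanolamine, had 4.65, 3.72 and 4.75 against 8.47, 8.52 and 7.58 (3.81 ± 0.69). The phospholipase pla2g3 was higher by 3.95 ± 0.72 and sptlc2b, a subunit of the enzyme that starts sphingolipid synthesis, by 1.87 ± 0.47. Arrays of the groups did not overlap in any of these 5 genes. Between 8 and 11 genes of the list were called with 1 array left out.

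For fatty acid oxidation the list as a whole did not stand apart, but its gatekeeper did. Of 60 genes 2 were higher (3.33%, against 5.07% of all genes) and 1 lower (1.67%, against 2.12%), with a median of -0.11. The gene cpt1aa, the liver carnitine palmitoyltransferase, had 6.23, 6.42 and 6.36 in DIO and 8.86, 8.63 and 8.79 in DIO+OF, a log2 fold change of 2.42 ± 0.27 (adjusted p = 0.0725), with all 3 probe sets called. Outside the list, bbox1, the last enzyme of carnitine synthesis, had 4.38, 5.83 and 5.51 against 7.98, 7.69 and 8.04 (2.67 ± 0.36). The 2 pyruvate dehydrogenase kinases called went opposite ways. The kinase pdk4, which closes pyruvate dehydrogenase in fasting, was lower, with 6.07, 6.16 and 6.92 against 5.55, 4.49 and 4.12 (-1.66 ± 0.40). The kinase pdk3a was the other gene of the list called higher, with 5.14, 3.63 and 4.15 against 5.66, 5.33 and 6.43 (1.5 ± 0.46).

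**Figure D3:**
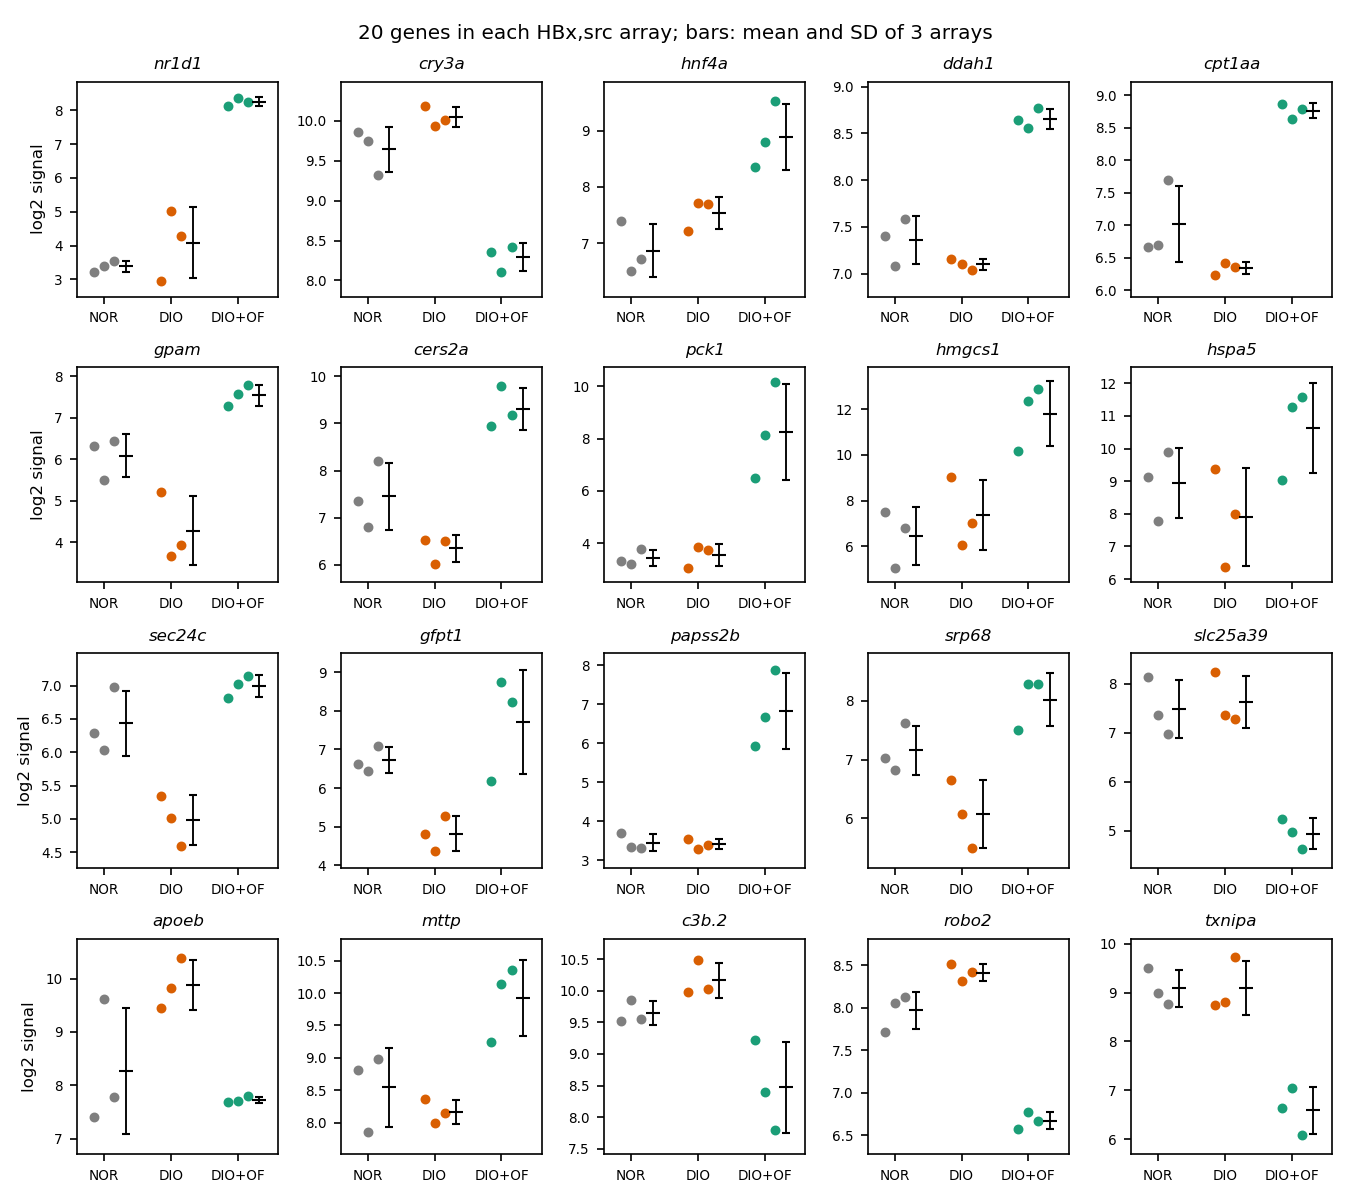
Log2 signal (y axis, a scale of its own in each panel) of 20 genes in the NOR, DIO and DIO+OF arrays of the line, with bars for mean and SD of 3 arrays. In nr1d1, cpt1aa, ddah1 and robo2 the DIO+OF arrays lie close together and apart from DIO, while in hspa5, hmgcs1 and gfpt1 DIO+OF replicate 1 lies below the other 2 DIO+OF arrays.

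Lipoprotein genes were lower more often than higher. Of 27 lipoprotein genes 7 were called lower (25.9%, against 2.12% of all genes) and 1 higher (3.7%, against 5.07%). The median log2 fold change was -0.48. The list medians were 7.44, 7.37 and 8.01 in DIO and 7.15, 7.12 and 7.03 in DIO+OF. The apolipoprotein apoeb had 9.45, 9.83 and 10.38 against 7.68, 7.71 and 7.79 (-2.16 ± 0.52), although its NOR arrays spanned 7.4 to 9.62. The gene apoa4b.1 had 8.0, 8.81 and 9.34 against 6.88, 6.96 and 6.78 (-1.84 ± 0.34), and lrp1ab, a receptor of lipoprotein remnants, had -1.19 ± 0.23 and was not called when its 4 probe sets were averaged (-0.73). For apoa1a, a main protein of high density lipoprotein, the value was -1.13 ± 0.35, not called without DIO+OF replicate 1 (-0.94) or with its probe sets averaged (-0.79). The apolipoprotein B gene apobb.1 was under the fold threshold but close in its replicates, with 12.57, 12.69 and 12.63 against 12.08, 12.04 and 11.96 (-0.60 ± 0.14). The single gene called higher was mttp, the transfer protein that loads lipid onto apolipoprotein B, with 8.36, 7.99 and 8.15 against 9.25, 10.14 and 10.36 (1.75 ± 0.37).

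Of 63 genes of plasma proteins, coagulation and complement 52 lay below 0, but only 2 were called lower, near the 2.12% of all genes. They were c3b.2, a complement C3 gene (9.98, 10.49 and 10.03 against 9.22, 8.4 and 7.79; -1.69 ± 0.34), and CFI, a complement regulator (-1.2 ± 0.36, not called without DIO+OF replicate 3 at -0.89). The count lay between 1 and 8 with 1 array left out. The fibrinogen chain fga had -0.65 ± 0.26 and prothrombin, f2, had -0.35 ± 0.17. Of 85 cytochrome P450 genes 9 were lower (10.6%, against 2.12% of all genes) and none higher (against 5.07%), with a median of -0.15. With 1 array left out 6 to 12 were lower and 0 to 2 higher. An example of the lower ones was cyp1d1, with 5.18, 7.25 and 5.9 against 3.94, 3.63 and 4.36 (-2.13 ± 0.53). Among 62 conjugation genes 3 were higher (4.84%, against 5.07% of all genes) and 3 lower (4.84%, against 2.12%). With 1 array left out 2 to 5 were higher and 2 to 6 lower. The lower ones included ugt1b3, a glucuronosyltransferase (-1.59 ± 0.33), and gstt1b, a glutathione transferase (-2.33 ± 0.46).

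Mitochondrial carriers were called in both directions. Carriers of the slc25 family move metabolites across the inner membrane. Of 55 of them 11 were called higher (20%, against 5.07% of all genes) and 3 lower (5.45%, against 2.12%), with a median of 0.71. The lower ones were slc25a39, a glutathione carrier (8.25, 7.36 and 7.28 against 5.24, 4.97 and 4.62; -2.69 ± 0.36), slc25a36a, a pyrimidine nucleotide carrier (8.96, 8.97 and 9.39 against 7.0, 6.95 and 4.77; -2.86 ± 0.54), and slc25a32a, a flavin and folate carrier (9.88, 8.55 and 9.49 against 5.6, 7.18 and 3.65; -3.83 ± 0.77). In each of them the groups were apart, and for slc25a36a and slc25a32a replicate 3 was the lowest DIO+OF array. Higher ones included slc25a25a, an ATP-magnesium carrier (2.69 ± 0.56), and slc25a22a, a glutamate carrier (2.55 ± 0.61). With 1 array left out 7 to 20 carriers were called higher and 3 were lower each time. The 67 mitochondrial ribosomal proteins had 11 genes higher (16.4%, against 5.07% of all genes) and none lower (median 0.50). Among the higher ones were mrpl43 (1.61 ± 0.43) and mrpl37 (1.41 ± 0.36). The count of higher genes ranged from 4, without DIO+OF replicate 3, to 24, without DIO+OF replicate 1. Of 97 subunits and assembly factors of oxidative phosphorylation 4 were higher and 1 lower, near the share of all genes. They included sdhb of complex II (1.23 ± 0.23, not called at 0.57 when its 2 probe sets were averaged) and, lower, cox5aa of complex IV (-1.02 ± 0.20), whose call was lost without DIO replicate 2 (-0.96), DIO replicate 3 (-0.92), DIO+OF replicate 2 (-0.97) or DIO+OF replicate 3 (-0.98), or with its probe sets averaged (-0.58). The 70 cytosolic ribosomal proteins had 1 gene higher and 1 lower (1.43% each, against 5.07% and 2.12% of all genes).

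The circadian clock genes included nr1d1, which had the smallest p of the named genes called higher. The repressor nr1d1 (Rev-erb alpha) had 2.96, 5.02 and 4.29 in DIO and 8.12, 8.38 and 8.26 in DIO+OF, with the DIO+OF arrays close together and far above every DIO array. Its log2 fold change was 4.17 ± 0.44 (adjusted p = 0.0725), and its adjusted p lay between 0.00538 and 0.222 over the alternatives tried. Of 28 repressor genes of the clock 5 were higher (17.9%, against 5.07% of all genes) and 3 lower (10.7%, against 2.12%). The period genes per1a (2.05, 3.54 and 2.91 against 4.84, 5.09 and 4.06; 1.83 ± 0.40) and per1b (1.45 ± 0.48), the clock-associated repressor ciartb (2.15 ± 0.36) and cry2 (1.38 ± 0.31) were the other higher ones. The call of per1b was lost without DIO replicate 1 (1.2) or DIO replicate 3 (1.23), and that of cry2 with its probe sets averaged (0.88).

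Of the lower clock repressors, cry3a varied least within the groups and nfil3-5 most. The cryptochrome cry3a had 10.19, 9.94 and 10.01 against 8.36, 8.1 and 8.42 (-1.76 ± 0.19, adjusted p = 0.0725), and cry3b had 6.7, 6.06 and 6.2 against 4.3, 4.66 and 5.16 (-1.62 ± 0.26). The repressor nfil3-5 had 5.23, 4.64 and 5.99 against 1.59, 3.5 and 2.91 (-2.62 ± 0.52). Of 23 activators and outputs 2 were higher (8.7%, against 5.07% of all genes) and 3 were lower (13%, against 2.12%). The higher ones were dbpb (2.42 ± 0.57) and rorab. The gene rorab, of the same receptor family as the lower rorcb, had 4.79, 3.49 and 4.63 against 5.53, 5.7 and 6.19 (1.51 ± 0.38). Among the lower ones, rorcb, a nuclear receptor that drives clock activators, had 7.83, 6.57 and 7.06 against 3.51, 3.03 and 5.99 (-2.98 ± 0.72), and clocka had -1.29 ± 0.34, not called without DIO+OF replicate 1 (-0.93). The activators bmal1a and bmal1b had -0.56 ± 0.51 and -0.60 ± 0.34 and were not called. The hour at which livers were taken is not stated, so its part in these values was not tested.

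Among glucose genes single members were called. The gene pck1, which commits carbon to gluconeogenesis, had 3.05, 3.85 and 3.72 in DIO, at the NOR level of 3.19 to 3.76, and 6.51, 8.13 and 10.18 in DIO+OF. Its log2 fold change was 4.74 ± 0.77 (adjusted p = 0.116). The end enzyme of the path, g6pc1a.1, was not called (-0.44 ± 0.41), and of 51 genes of gluconeogenesis and glycolysis 4 were higher (7.84%, against 5.07% of all genes) and 2 lower (3.92%, against 2.12%), with 2 to 10 higher and 0 to 4 lower when 1 array was left out. Of 36 genes of insulin, IGF and glucagon signalling 3 were higher (8.33%) and 2 lower (5.56%), with 0 to 4 higher and 1 to 3 lower when 1 array was left out. The lower ones were the glucagon receptor genes, gcgra with 6.77, 7.58 and 7.08 against 6.41, 5.69 and 5.91 (-1.14 ± 0.33) and gcgrb with -1.54 ± 0.46. The gcgra call was lost without DIO replicate 2 (-0.92), without DIO+OF replicate 2 (-0.98) or with its probe sets averaged (-0.87).

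Of 44 genes of amino acid catabolism and the urea cycle 8 were higher (18.2%, against 5.07% of all genes) and 1 lower (2.27%, against 2.12%). The glutaminase gls2b had 2.26, 1.7 and 2.35 against 3.89, 5.41 and 5.06 (2.68 ± 0.45), oat, the ornithine aminotransferase, was higher by 2.39 ± 0.47, and prodha, the proline dehydrogenase, had 5.88, 3.34 and 5.75 against 7.18, 8.87 and 10.82 (3.97 ± 0.96). The tyrosine aminotransferase tat was higher by 1.51 ± 0.41. The lower gene was hal, the histidine ammonia-lyase, with 9.08, 9.01 and 8.86 against 7.8, 7.42 and 7.93 (-1.26 ± 0.18, adjusted p = 0.0879). Among 44 genes of serine synthesis and amino acid stress 7 were higher (15.9%), asns (1.36 ± 0.41) among them, and 2 were lower (4.55%). With 1 array left out 3 to 17 were higher. The lower ones were shmt1, the cytosolic serine hydroxymethyltransferase (-1.21 ± 0.24), and nupr1a, a stress-induced nuclear protein (5.06, 5.65 and 5.39 against 3.87, 2.16 and 1.74; -2.78 ± 0.55).

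The gene ddah1, whose enzyme breaks down an inhibitor of nitric oxide synthase and which the study singled out, was among the genes with the lowest p. It had 7.16, 7.1 and 7.04 in DIO and 8.64, 8.56 and 8.77 in DIO+OF, a log2 fold change of 1.56 ± 0.17 (adjusted p = 0.0725, and between 0.00538 and 0.176 over the alternatives). In its list of 23 arginine, nitric oxide and polyamine genes 6 were higher (26.1%, against 5.07% of all genes) and 1 lower (4.35%, against 2.12%). The polyamine synthesis genes amd1 (5.64, 4.87 and 5.39 against 6.73, 7.22 and 7.62; 1.89 ± 0.30) and srm (2.76 ± 0.86) were higher, while sat1a.1, which acetylates polyamines for breakdown, had 8.53, 9.34 and 9.05 against 6.83, 6.6 and 6.15 (-2.45 ± 0.45). The cofactor enzyme gch1 was higher by 1.62 ± 0.47. The arginase arg2 did not overlap between the groups but missed the threshold (1.56 ± 0.68).

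The 29 genes the study names were in part chosen on these samples and are not independent evidence. Of them 4 were called higher (13.8%, against 5.07% of all genes) and none lower. Beside ddah1 they were hnf4a, the hepatocyte nuclear factor, hsd11b1lb, a hydroxysteroid dehydrogenase (1.21 ± 0.27), and mapk14a, a p38 kinase (1.03 ± 0.29). The hnf4a arrays had 7.21, 7.71 and 7.7 in DIO and 8.36, 8.8 and 9.52 in DIO+OF (1.35 ± 0.34, adjusted p = 0.224), and 1 of its 3 probe sets was called. The mapk14a call was lost without DIO replicate 2 (0.73), DIO+OF replicate 1 (0.97) or DIO+OF replicate 2 (0.96), and with its probe sets averaged (0.63). The lipid factor pparg had 0.41 ± 0.21, the proliferation markers pcna and cdk1 had 0.77 ± 0.55 and -0.05 ± 0.35, and the fibrosis marker col1a1a had -0.55 ± 0.44, none of them called. Among 36 hepatocyte transcription factors 3 were higher (8.33%, against 5.07% of all genes) and 2 lower (5.56%, against 2.12%). With 1 array left out 1 to 4 were higher and 1 to 3 lower. The higher ones were hnf4a, nr5a2 (7.07, 7.01 and 7.08 against 7.8, 8.11 and 8.37, 1.04 ± 0.21) and foxa3 (1.45 ± 0.52). The retinoid receptor rxrgb was one of the lower ones, with 6.16, 6.32 and 6.69 against 4.87, 4.92 and 4.49 (-1.63 ± 0.23). The call of nr5a2 was lost without DIO+OF replicate 3 (0.90), and that of foxa3 without DIO replicate 2 (1.29) or DIO+OF replicate 3 (1.24).

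DNA replication and mitosis (79 genes, median -0.02) and collagens (51 genes, median -0.10) had no gene called in either direction. Their median log2 signals in the DIO and DIO+OF arrays were low, 2.04 to 2.17 and 2.06 to 2.55. The medians of these whole arrays were 2.106 to 2.212. Many members therefore had a signal at which a change could hardly be seen, and the lack of calls does not show that they were unchanged. The matrix proteases and fibrosis genes had 2 of 47 lower (4.26%, against 2.12% of all genes), and 1 to 2 with 1 array left out. The membrane protease mmp14b had 6.72, 6.87 and 7.44 against 4.8, 5.5 and 4.92 (-1.93 ± 0.35), and tgfbi, a matrix protein induced by TGF-beta, had -1.43 ± 0.48 with overlapping arrays. The call of tgfbi was lost without DIO replicate 1 (-1.28), DIO+OF replicate 2 (-1.07) or DIO+OF replicate 3 (-1.14). Of 46 proteasome genes 6 were higher (13%, against 5.07% of all genes), psmc6 (2.05 ± 0.49) and psmd11a (2.36 ± 0.64) among them. Of 48 cytosolic chaperones and heat shock genes 1 was lower (2.08%, near the 2.12% of all genes) and 9 were higher (18.8%). With 1 array left out the lowest count was 3 for either list. The inducible hsp90aa1.2 had 3.17, 3.09 and 3.02 against 2.88, 5.72 and 8.54, so that its mean change rested on replicates 2 and 3. Its call was lost whenever any 1 array other than DIO+OF replicate 1 was left out (1.21 to 2.66).

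Genes with the lowest p that were lower included several outside these lists. The axon guidance receptor robo2 had 8.51, 8.31 and 8.42 in DIO and 6.58, 6.77 and 6.67 in DIO+OF (-1.74 ± 0.16, adjusted p = 0.0636), and all 6 of its probe sets were called. The actin regulator mical3a had 7.42, 7.24 and 6.98 against 5.73, 5.7 and 5.58 (-1.54 ± 0.18), and the calcium release channel itpr1a had 5.9, 5.76 and 6.08 against 3.65, 3.36 and 4.08 (-2.22 ± 0.25). The vitamin transporter slc5a6b, which carries biotin and pantothenate, had 5.89, 5.54 and 6.5 against 3.04, 3.38 and 3.9 (-2.54 ± 0.30). In all 4 genes the arrays of the groups lay well apart, and DIO+OF replicate 1 was not set off from the other DIO+OF arrays. The thioredoxin inhibitor txnipa, a glucose-induced gene, had 8.74, 8.81 and 9.72 against 6.63, 7.05 and 6.08 (-2.50 ± 0.35), and stbd1, which binds glycogen to membranes, was lower by 2.08 with an SE of 0.29. The stress gene ndrg1a had -1.76 ± 0.25 and the tetraspanin cd9a had -1.54 ± 0.20. On the higher side, syngr2a, a vesicle membrane protein, had 6.79, 6.9 and 6.85 against 8.43, 9.29 and 9.22 (2.13 ± 0.28), fam20a, a pseudokinase of the secretory pathway, was higher by 1.82 ± 0.25, and ppp2caa, the catalytic subunit of protein phosphatase 2A, by 2.14 ± 0.29. The gene ypel3, a p53-responsive growth inhibitor, was not among the 15 lower genes of lowest p. It had 4.85, 5.54 and 5.3 against 3.0, 3.08 and 2.3 (-2.44 ± 0.36). Of 32 p53 targets 3 were higher (9.38%, against 5.07% of all genes) and 3 lower (9.38%, against 2.12%), with a median of -0.03. With 1 array left out 0 to 3 were higher and 1 to 4 lower.

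The same contrast in the livers of the line heterozygous for p53 had medians of the opposite sign for both sterol synthesis lists and the 4 ER lists, but not for sterol regulation (0.06 there, 0.37 in HBx,src) or bile acid genes (0.88 and 0.04). List medians were -2.16 for mevalonate genes and -1.38 for ER chaperones there, against 2.12 and 0.90 in HBx,src, and the difference of the 2 contrasts passed an adjusted p under 0.05 for 583 probe sets (0.775%) and 269 genes (1.29%), including 5 of the 12 mevalonate genes and 15 of the 34 chaperones. One DIO+OF array of that line lacked the vitellogenin signal of the female liver. Without that array (an alternative added once the data had been seen) the medians were -1.83 and -1.27, 103 probe sets differed, and 0 mevalonate genes and 2 chaperones were left. A fall of this size was not particular to that array. Leaving out DIO replicate 1, 2 or 3 of that line instead left 674, 440 or 102 probe sets. Leaving out its DIO+OF replicate 1 or 2 left 641 or 104. Line and batch coincide, so a difference between the lines cannot be told apart from one between the batches. The log2 values also spread less in batch 1. The interquartile range of an array was 1.798 to 2.028 in batch 1 and 2.888 to 3.336 in batch 2. Fold changes of the 2 lines may therefore not be on the same scale. Of the 15 genes of lowest p called higher 8 lay above 0 in the other line and 7 below it, and of the 15 called lower 7 lay below 0 and 8 above it. Several of these values were close to 0 for their SE, as in cpt1aa (0.23 ± 0.50) and rxrgb (-0.01 ± 0.25). The difference between the lines passed an adjusted p under 0.05 in 2 of the 15 higher and 8 of the 15 lower genes. These genes were chosen for a low p in HBx,src, which is a part of this difference. Their counts can therefore not be set against the share of all genes. Without the array that lacked vitellogenin gpam, stbd1, txnipa and ndrg1a no longer passed, while dnajc25, slc5a6b, cd9a and rxrgb still did. Opposite values included gpam (-1.46 ± 0.81), dnajc25 (-2 ± 0.47), slc5a6b (0.98 ± 0.22) and cd9a (0.86 ± 0.30). On the same side in both lines were nr1d1 (4.54 in the other line, difference -0.37 ± 0.62, adjusted p = 0.863), ddah1 (1.75, difference adjusted p = 0.823) and, from outside these 30 genes, pck1 (5.28, difference adjusted p = 0.928).

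**Figure D4:**
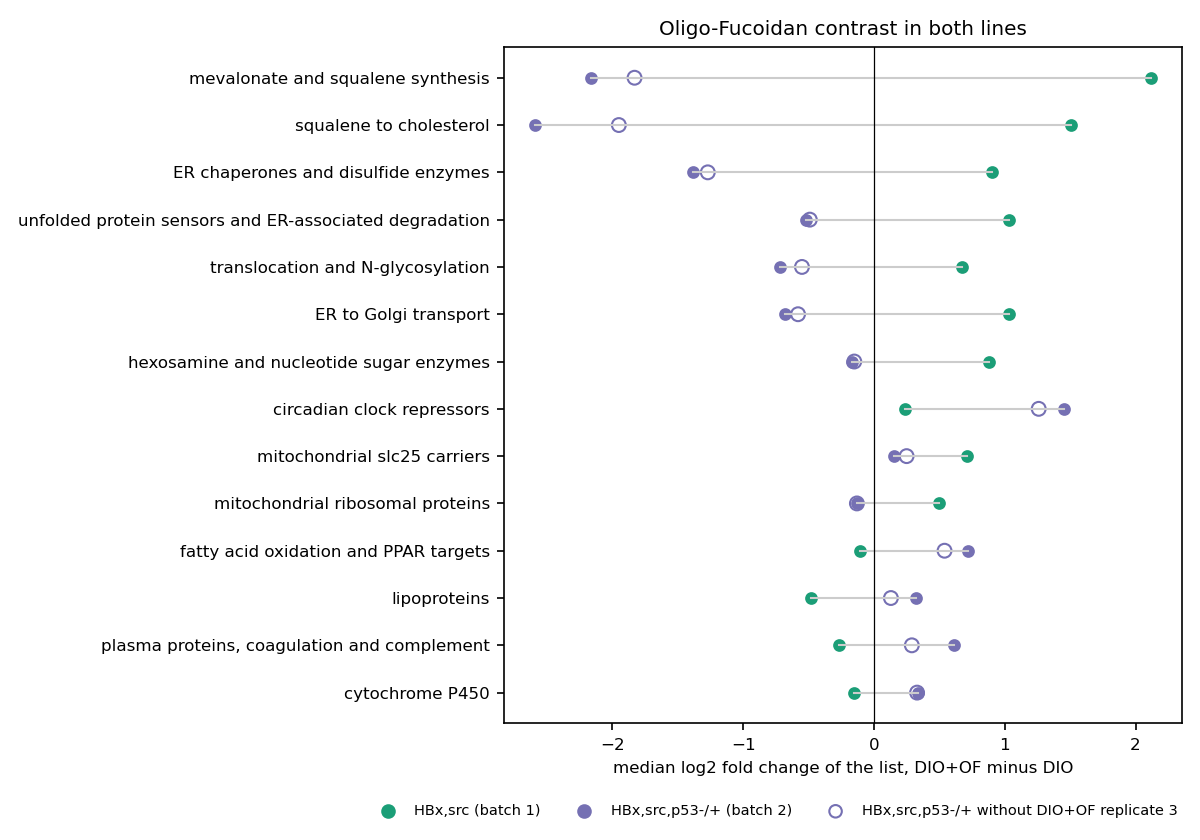
Median log2 fold change (x axis, DIO+OF minus DIO) of 14 lists in HBx,src (green), in the line heterozygous for p53 (purple) and in that line without the array that lacked vitellogenin (open circles). The sterol synthesis and ER medians lie above 0 in HBx,src and below 0 in the other line with and without that array.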

How the data were processed

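Livers were profiled on zebrafish gene arrays, and the deposited table holds 1 log2 value per probe set and array, made by the authors with the Transcriptome Analysis Console; the sources used here do not give its version, the summarisation or the normalization, and the log2 scale was read from the values. The number of arrays limits the precision. DIO+OF and DIO were compared with limma 3.58.1 (R 4.3.3) in a fit of the 9 HBx,src arrays, with Benjamini-Hochberg adjustment over 75212 probe sets, and the fit was tested on simulated data. The fit was kept to 1 batch on the premise that the batches differ in spread, but the median residual SD was 0.328 in batch 1 and 0.339 in batch 2, so the 17-array counts are printed beside it. The difference between lines came from all 17 arrays, and the deposited values were not rescaled between the batches for it.

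Probe set annotation came from the platform table: 30358 probe sets had 1 symbol, 1015 several and 43839 were not listed there. A gene was represented by its probe set with the highest mean over the 9 arrays. Named genes were those with an adjusted p under 0.05, the 15 of lowest p in each direction among called genes without overlap, the first 2 members and up to 6 further ones of lowest p of each of 57 lists, and genes the study names. Members and lists were chosen with earlier results of these data known, and lists were described by counts and medians without a test. Alternatives changed the arrays, scaling, filter, variance model and gene summary. Figures were drawn with matplotlib 3.10.9.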

Additional observations from a re-analysis of the deposited data

Results flagged for a closer look

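For 42 of the 152 genes given above, the OF contrast in HBx,src differed from that in the line heterozygous for p53 (interaction term in limma over 17 arrays, adjusted p under 0.05). Over all genes 269 differed (1.29%). The genes given above were chosen in large part for a low p in HBx,src, which is a part of this difference. Their count can therefore not be set against the share of all genes. In 27 the difference was positive and in 15 negative. After leaving out DIO+OF replicate 3 of the other line, an alternative added once the data had been seen, 8 kept an adjusted p under 0.05 and 34 did not. Over all probe sets 583 differed with all arrays, 103 without this one, and 64 to 1645 with 1 other DIO or DIO+OF array left out. The 8 were dnajc25 (difference 4.99 on the log2 scale, 4.86 without the array), sec24c (3.01 and 2.98), sec31a (3.6 and 3.43), serp1 (4.82 and 4.48), creld2 (5.1 and 4.75), slc5a6b (-3.52 and -3.58), cd9a (-2.41 and -2.25) and rxrgb (-1.62 and -1.85). Line and batch cannot be told apart in any of these values.

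The other differences, with all arrays, were as follows. For sterol genes they were 7.99 for hmgcs1, 7.29 for mvda, 6.38 for fdft1, 6.14 for lss, 4.82 for dhcr7, 4.02 for nsdhl, 2.1 for scap and -3.29 for cyp27a1.2. Genes of folding, entry and stress of the ER had 5.05 (dnajb9b), 4.94 (manf), 3.03 (eif2ak3), 3.03 (sel1l), 2.53 (atf6) and 2.68 (srp68). Transport and sugar genes had 3.93 (arcn1a), 3.37 (cope), 2.72 (use1), 4.96 (gmppab) and 4.94 (slc35b1). Among lipid genes the difference was 5.52 for pla2g3, 4.72 for gpam, 2.19 for mttp, -2.24 for apoa4b.1, -2.15 for lrp1ab, -1.02 for apobb.1 and -2.75 for pdk4. The remaining genes were amd1 (2.22), nupr1a (-3.14), ugt1b3 (-2.08), mmp14b (-2.34), tgfbi (-5.06), txnipa (-2.87), stbd1 (-2.23) and ndrg1a (-1.85).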

How the results depend on the processing

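The number of probe sets past an adjusted p of 0.05, 2 with 9 arrays, was 16 with the 6 DIO and DIO+OF arrays, 315 with 17 arrays, 410 with weights per batch, 57 over probe sets with 1 symbol, 4 with equal-valued probe sets counted once, 0 without moderation and 0 to 636 with 1 array left out. It was 636 without DIO+OF replicate 1 and 0 without NOR replicate 1, DIO replicate 3, DIO+OF replicate 2 or DIO+OF replicate 3. At the methods' threshold 3706 became 2026 over probe sets with 1 symbol, where fewer were tested, and 3052 to 5546 with 1 array left out. The difference between the lines (583 probe sets) ranged from 64, without HBx,src DIO replicate 2, to 1645, without HBx,src DIO+OF replicate 1. With the replicate number as a block (replicate block) 0 probe sets passed the adjusted threshold, 3709 passed the methods' threshold and 34 differed between the lines. The deviations of same-numbered DIO and DIO+OF arrays from their group means correlated over probe sets at -0.029, 0.018 and -0.016. These values give no sign that equal numbers pair the arrays. The cause of these shifts was not tested. Of the 89 higher and 42 lower genes in the text, 102 stayed there under every alternative run and 29 did not under 1 or more, most often without DIO+OF replicate 2 (15 genes), and none changed direction. The genes in the text were chosen in large part for a low p in this same contrast. These counts therefore do not stand for all called genes, for which they were not made.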
